A study of Mus musculus with 4 samples.

Results

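Fibroblast growth factor (FGF) genes were followed in mouse embryonic stem cells driven towards mesoderm, in which 10 genes were described: the ligand genes Fgf3, Fgf4, Fgf5, Fgf8, Fgf15 and Fgf17, the carrier gene Fgfbp1, and the receptor genes Fgfr1, Fgfr2 and Fgfr3. They were chosen by gene name, as 10 of the 51826 genes in the deposited expression table. RNA sequencing had been done on 2 libraries from Stk40-/- cells and 2 libraries from wild-type cells, all of C57BL/6 background and all collected at day 3. Stk40 encodes a pseudokinase, and the study asked what its loss does to the c-JUN protein and to mesoderm formation. Every culture had been kept on mouse fibroblast feeders in a medium with LIF, the GSK3 inhibitor CHIR99021 and PD0325901, an inhibitor of the MEK kinases that act below FGF receptors. The feeders were removed by passaging on gelatin, and the cells then had BMP4 at 10 ng/ml for 2 days and CHIR99021 at 1 uM with 0.5% DMSO for the last day, with no FGF named among the additions. Nothing in the labels says whether a genotype was 1 line or several, or whether its libraries were separate cultures. The p-values therefore cover the spread between these 4 libraries alone, and that spread may be technical.

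FGF ligands are secreted proteins that bind receptor tyrosine kinases together with heparan sulfate chains, and the receptors signal through the RAS, RAF, MEK and ERK cascade. In the early mouse embryo Fgf4 is made by pluripotent cells and the epiblast, Fgf5 marks the epiblast as it prepares for germ layer formation, and Fgf8 is made in the primitive streak, where it is needed for cells to move away as mesoderm. Fgfr1 is the receptor that carries most of this signal in the epiblast and streak. Fgfbp1 is a secreted protein that binds FGFs held in the matrix and releases them.

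Values are in TPM (transcript abundance scaled for transcript length and to a fixed library total), so that levels of genes can be set side by side. The read depth behind a value is unknown. Fold changes are Stk40-/- over wild type in log2 units, taken after adding 1 TPM to each value, and this makes differences in low genes look smaller than they are. The test was limma with Benjamini-Hochberg adjustment, over every gene averaging 1 TPM or more. Stk40, the check of the labels, was at 3.54 and 3.17 TPM in the Stk40-/- libraries and at 28.9 and 39.9 TPM in wild-type libraries. Of 15739 genes tested, limma called 0 at an adjusted p under 0.05, which is 0% of them, and 1730 genes (11.0%) had an unadjusted p under 0.05, higher in Stk40-/- cells for 6.48% and lower for 4.51%. Of the members, 8 passed the expression filter and 0 were called, and 3 had an unadjusted p under 0.05, Fgf4 and Fgfbp1 being higher and Fgf8 lower. Stk40 itself was not called, at a log2 fold change of -3.01 (limma adjusted p = 0.139). The lack of a call therefore does not show that a gene was unchanged. All differences below are therefore described by their values and by whether the 2 libraries of each genotype overlapped. Non-overlap was common, at 44.0% of tested genes, with the Stk40-/- libraries higher in 27.5% and lower in 16.6%. Every count below of genes lying higher or lower is to be read beside these shares. Among the 10 members the groups did not overlap in 6, Fgf4, Fgf5, Fgf15 and Fgfbp1 being higher and Fgf8 and Fgfr1 lower in the Stk40-/- libraries. Fgf15 was below the filter and so outside the tested genes behind these shares. It was separate only by 0.535 TPM in Stk40-/- library 1 against 0.527 TPM in wild-type library 1.

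In Stk40-/- cells Fgf8 lay lower and Fgf4, Fgf5 and Fgfbp1 lay higher, while the summed level of the receptors overlapped between the genotypes. Fgf8 averaged 47.0 ± 6.72 TPM in Stk40-/- cells and 90.2 ± 10.8 TPM in wild-type cells (SD, n = 2 each). Fgf4 averaged 11.6 ± 2.52 TPM in Stk40-/- cells and 4.52 ± 1.96 TPM in wild-type cells, and Fgf5 8.65 ± 2.33 TPM in Stk40-/- cells and 4.75 ± 1.49 TPM in wild-type cells. Fgfbp1 averaged 86.6 ± 8.83 TPM in Stk40-/- cells and 29.0 ± 4.95 TPM in wild-type cells, a ratio of means of 2.98. Fgfr1, the most abundant member in every library, averaged 104 ± 0.0359 TPM in Stk40-/- cells and 112 ± 10.1 TPM in wild-type cells.

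**Figure D1:**
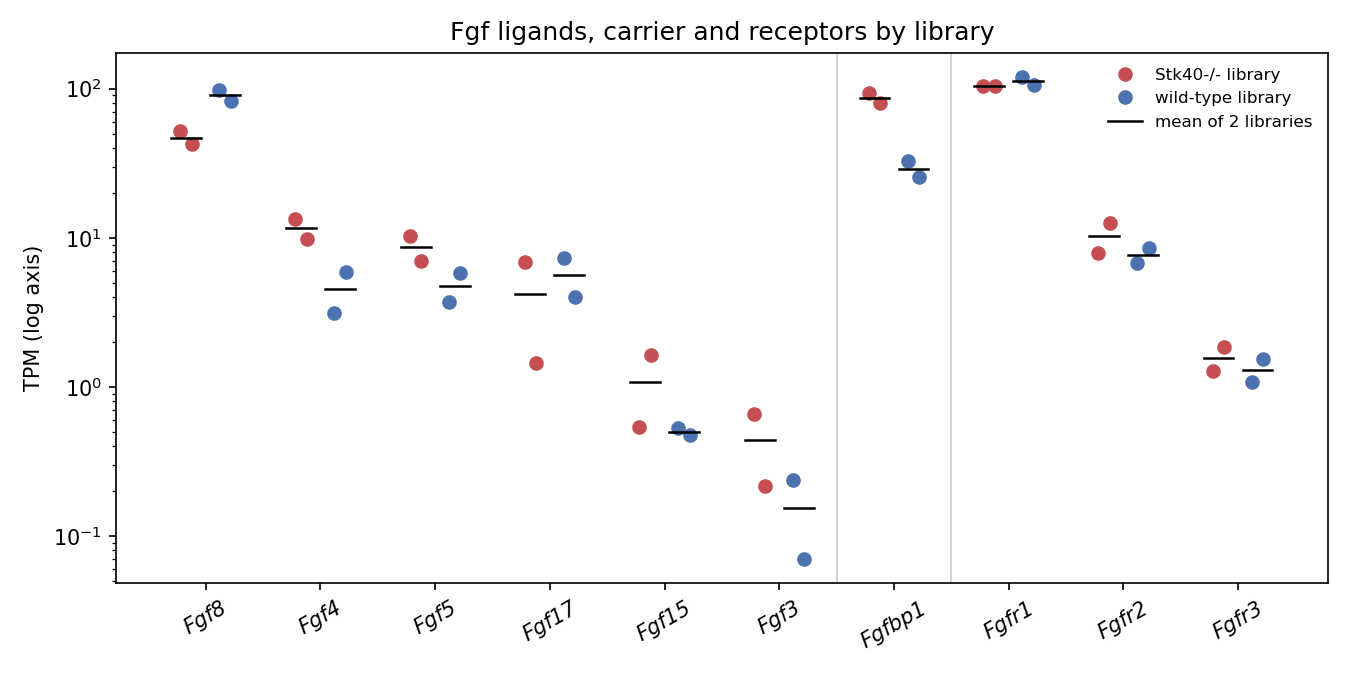
TPM on a log axis for the 10 genes, with 1 point per library (n = 2 per genotype), Stk40-/- in red to the left of wild type in blue, and a line at each mean. Fgf8 points are lower and Fgf4, Fgf5 and Fgfbp1 points higher in Stk40-/- cells without overlap, while Fgfr1 stays near 100 TPM in all 4 libraries.

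Start regions of Fgfbp1, Fgf4 and Fgf5 are shown because these 3 had the most positive fold changes among the tested members, a choice made after the values were seen. Fgf8, Fgf15, Fgf17 and Fgfr1 had no entry among the promoters used, so their start regions could not be shown or searched. The sequences are RefSeq promoters on GRCm38.p6, each from 250 bases before to 50 bases after the start that RefSeq annotates. They lie at chr5:43981750-43982049 on the minus strand for Fgfbp1, at chr7:144861136-144861435 on the plus strand for Fgf4 and at chr5:98253934-98254233 on the plus strand for Fgf5, and are printed 5′ to 3′ along the strand of the gene. For Fgf4 the RefSeq start differs from the GENCODE gene start at 144847367, and the window lies inside the GENCODE span. The starts also differ slightly for Fgfbp1. Capitals mark matches to any of 4 motifs searched on both strands: AGGTGT (a T-box core), TGANTCA (AP-1, the dimer that c-JUN enters), CTTTGAT (a TCF/LEF core) and TATAAA (the TBP box, added after the sequences were seen). The motifs do not overlap in these matches.
Fgfbp1: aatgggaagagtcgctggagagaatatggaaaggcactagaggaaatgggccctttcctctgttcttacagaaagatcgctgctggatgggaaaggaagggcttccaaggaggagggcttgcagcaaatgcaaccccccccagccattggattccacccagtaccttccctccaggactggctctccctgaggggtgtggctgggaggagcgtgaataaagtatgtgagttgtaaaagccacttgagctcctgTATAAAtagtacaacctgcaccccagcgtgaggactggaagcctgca
Fgf4: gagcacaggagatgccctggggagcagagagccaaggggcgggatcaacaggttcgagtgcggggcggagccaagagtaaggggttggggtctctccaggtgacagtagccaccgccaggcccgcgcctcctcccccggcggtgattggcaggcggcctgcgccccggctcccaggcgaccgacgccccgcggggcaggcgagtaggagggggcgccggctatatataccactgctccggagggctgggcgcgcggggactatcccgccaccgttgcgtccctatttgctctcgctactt
Fgf5: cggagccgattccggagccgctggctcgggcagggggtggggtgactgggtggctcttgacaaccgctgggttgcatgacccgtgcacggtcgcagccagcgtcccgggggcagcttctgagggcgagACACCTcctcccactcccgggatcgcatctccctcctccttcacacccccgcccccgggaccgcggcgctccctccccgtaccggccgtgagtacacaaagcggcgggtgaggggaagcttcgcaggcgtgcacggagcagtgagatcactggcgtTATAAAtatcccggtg

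Fgfbp1 and Fgf5 each held 1 match to TATAAA, starting at positions 4 and 35 after the annotated start, a motif found in 13.6% of the 32851 promoters of that length. Fgf5 also held 1 match to AGGTGT, on the opposite strand and starting 122 bases before the start, as do 13.7% of all promoters. Fgf4 held no match to any of the 4, but its window holds the stretch tatatata before the annotated start. The search took exact letters only, so a window without TATAAA can still hold a related stretch. No match to TGANTCA, present in 7.81% of promoters, or to CTTTGAT, present in 3.73%, lies in these windows. Base composition also differed, with 69.7% G and C in the Fgf4 window, 68.3% in that of Fgf5 and 53.3% in that of Fgfbp1, against a median of 52.7% over all promoters. A match is a description of letters and not of binding.

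Fgf8 (ENSMUSG00000025219.13; GRCm38 chromosome 19, 45736798 to 45742915, minus strand) was the most abundant ligand in every library. It had 51.8 and 42.3 TPM in the Stk40-/- libraries and 97.8 and 82.6 TPM in the wild-type libraries. The lower wild-type value lay well above the higher Stk40-/- value, and the ratio of the means was 0.521. The log2 fold change was -0.93 (SE 0.15, 95% interval -1.34 to -0.51, limma adjusted p = 0.279), and 9.33% of all tested genes had a fold change at least as large in size. Without any 1 library it ranged from -1.07 to -0.78. In level, Fgf8 stood above 77.8% of tested genes in Stk40-/- cells and above 89.2% in wild-type cells.

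The streak transcription factor gene T put the libraries in the same order as Fgf8, with 355 and 217 TPM in the Stk40-/- libraries and 1025 and 535 TPM in the wild-type libraries. Over a list of 15 streak and mesoderm markers the summed level was 365 and 227 TPM in the Stk40-/- libraries and 1154 and 556 TPM in the wild-type libraries. Of the 5 tested genes of that list 3 lay lower in both Stk40-/- libraries, 0 lay higher, and all 5 fold changes were negative. Beside T these were Mixl1, a streak gene, with 2.06 and 1.71 TPM in Stk40-/- libraries and 24.7 and 6.77 TPM in wild-type libraries, and Msgn1, a gene of presomitic mesoderm, with 0.975 and 0 TPM in Stk40-/- libraries and 90.6 and 7.22 TPM in wild-type libraries. The groups overlapped for the other tested genes of the list, Eomes, with 2.82 and 2.51 TPM in Stk40-/- libraries and 3.91 and 2.37 TPM in wild-type libraries, and Hand1, with 1.51 and 2.48 TPM in Stk40-/- libraries and 3.11 and 2.27 TPM in wild-type libraries. Mesp1, Mesp2, Tbx6, Kdr, Pdgfra, Foxc1, Foxc2, Meox1, Gsc and Lhx1 averaged under 1 TPM over the 4 libraries, and Mesp1 was listed at 0 in 3 of them. The part of these cells in the Fgf8 difference was not tested, and in bulk RNA fewer cells of a type and less RNA per cell cannot be told apart.

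Fgf17 (ENSMUSG00000022101.5; chromosome 14, 70636203 to 70642268, minus strand) is a ligand gene of the same subfamily as Fgf8. It had 6.92 and 1.45 TPM in the Stk40-/- libraries and 7.27 and 3.98 TPM in wild-type libraries, and the groups overlapped. The Stk40-/- libraries differed from each other by 1.69 on the log2 scale, more than the fold change between genotypes of -0.54 (SE 0.66, limma adjusted p = 0.765). The sign depended on 1 library, since leaving out Stk40-/- library 2 gave 0.30 and leaving out Stk40-/- library 1 gave -1.39. Leaving out a wild-type library gave -0.18 (library 1) or -0.91 (library 2).

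Fgf4 (ENSMUSG00000050917.5; chromosome 7, 144847367 to 144865243, plus strand), an autocrine ligand of embryonic stem cells, lay higher in Stk40-/- cells. It had 13.4 and 9.78 TPM in the Stk40-/- libraries and 3.13 and 5.90 TPM in the wild-type libraries. The groups did not overlap, although the wild-type values themselves differed by 0.74 on the log2 scale. The log2 fold change was 1.22 (SE 0.34, 95% interval 0.31 to 2.13, limma adjusted p = 0.401), and it ranged from 0.85 to 1.59 without any 1 library. A fold change at least as large in size was seen for 6.23% of tested genes.

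Fgf5 (ENSMUSG00000029337.2; chromosome 5, 98254184 to 98277030, plus strand) had 10.3 and 7.01 TPM in the Stk40-/- libraries and 3.70 and 5.81 TPM in the wild-type libraries. The groups did not overlap, but the gap between the lower Stk40-/- and the higher wild-type library was small beside the spread within each genotype. The log2 fold change was 0.75 (SE 0.31, 95% interval -0.08 to 1.58, limma adjusted p = 0.484), and it ranged from 0.48 (wild-type library 1 left out) to 1.02 (wild-type library 2 left out). As with Fgf4, Stk40-/- library 1 was the highest and wild-type library 1 the lowest of the 4.

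Markers of the cell states in which Fgf4 and Fgf5 are made were summed beside them. Of 9 primed epiblast markers, all tested, 5 lay higher (Otx2, Pou3f1, Zic2, Sox3 and Utf1) and 2 lower (Fst and Lef1) in both Stk40-/- libraries, and their summed level was 813 and 766 TPM in Stk40-/- libraries and 666 and 657 TPM in wild-type libraries. Otx2, a transcription factor of the primed epiblast, had 22.9 and 12.9 TPM in the Stk40-/- libraries and 3.58 and 4.18 TPM in the wild-type libraries. Of 11 naive pluripotency markers 8 were tested, of which 2 lay higher (Nanog and Klf4) and 1 lower (Zfp42), with a summed level of 273 and 230 TPM in Stk40-/- libraries and 178 and 208 TPM in wild-type libraries. Most of that sum was Nanog, with 219 and 166 TPM in Stk40-/- libraries and 113 and 132 TPM in wild-type libraries, whereas 6 of the 8 fold changes were negative and their median was -0.17. None of the markers in either list was at 0 in all 4 libraries, and their part in the Fgf4 and Fgf5 differences was not tested.

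Fgf15 and Fgf3 were the lowest members and below the filter. Fgf15 (ENSMUSG00000031073.6; chromosome 7, 144896531 to 144900953), the mouse counterpart of human FGF19, had 0.535 and 1.63 TPM in the Stk40-/- libraries and 0.527 and 0.473 TPM in the wild-type libraries. Stk40-/- library 2 alone stood apart, and the other 3 lay close together. Fgf3 (ENSMUSG00000031074.14; chromosome 7, 144838083 to 144844436), known for its part in the inner ear and tail, had 0.658 and 0.216 TPM in the Stk40-/- libraries and 0.236 and 0.0696 TPM in wild-type libraries, and the groups overlapped.

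Fgf3, Fgf4 and Fgf15 lie next to each other among the protein-coding genes of chromosome 7, followed by Oraov1 and by the cyclin gene Ccnd1, which ends at 144939925. Genes in this stretch did not share a direction. Oraov1 had 5.60 and 6.70 TPM in the Stk40-/- libraries and 11.9 and 11.4 TPM in the wild-type libraries (log2 fold change -0.82, SE 0.18, limma adjusted p = 0.343), opposite in sign to Fgf4. Ccnd1, a cell cycle gene that growth factors induce, had 61.3 and 64.7 TPM in the Stk40-/- libraries and 54.3 and 52.7 TPM in the wild-type libraries. Oraov1 and Ccnd1 overlap in the annotation on opposite strands, and the sources do not say whether strand was used, so how their reads were divided is uncertain. Of the genes beyond this stretch, Cttn had 165 and 133 TPM in Stk40-/- libraries and 171 and 110 TPM in wild-type libraries, and Tpcn2 5.44 and 9.96 TPM in Stk40-/- libraries and 13.3 and 5.44 TPM in wild-type libraries, both with overlap.

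Summed over all 18 genes of secreted Fgf ligands, the level was 86.6 and 69.1 TPM in the Stk40-/- libraries and 115 and 108 TPM in the wild-type libraries, without overlap. The 6 member ligands made up 96.5% and 90.2% of that sum in Stk40-/- libraries and 98.2% and 91.7% in wild-type libraries. The share of Fgf8 was 59.8% and 61.1% in Stk40-/- libraries and 85.2% and 76.6% in wild-type libraries. The share of Fgf4 was 15.4% and 14.1% in Stk40-/- libraries and 2.72% and 5.48% in wild-type libraries. That of Fgf5 was 11.9% and 10.1% in Stk40-/- libraries and 3.22% and 5.39% in wild-type libraries. None of these 3 shares overlapped between the genotypes, although wild-type library 2 lay nearer to the Stk40-/- libraries than wild-type library 1 did in each.

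By subfamily, which was grouped after the values were seen, the Fgf4, Fgf5 and Fgf6 genes together reached 0.396 and 0.367 of the summed level of Fgf8, Fgf17 and Fgf18 in the Stk40-/- libraries, and 0.0652 and 0.133 of it in the wild-type libraries. The ratio of Fgf8 to Fgf4 was 3.88 and 4.32 in the Stk40-/- libraries and 31.3 and 13.98 in the wild-type libraries. In this ratio the wild-type libraries differed from each other more than the Stk40-/- libraries did.

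**Figure D2:**
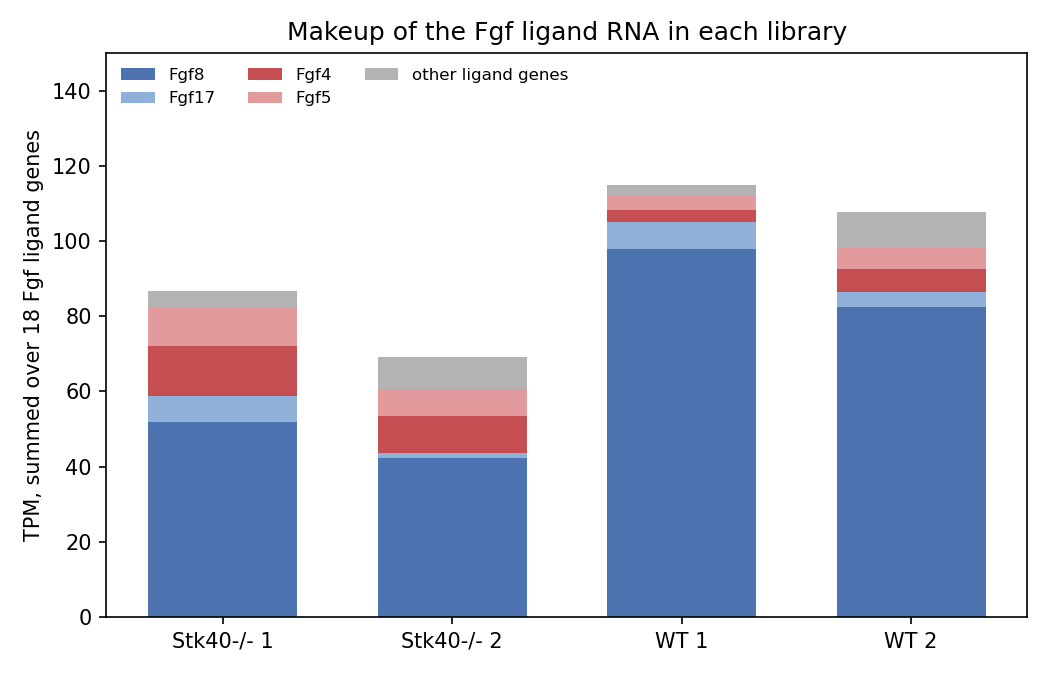
Stacked TPM of 18 Fgf ligand genes in each of the 4 libraries, Stk40-/- on the left, with Fgf8, Fgf17, Fgf4 and Fgf5 coloured and the other genes in grey. The blue Fgf8 block is 51.8 and 42.3 TPM in Stk40-/- libraries and 97.8 and 82.6 TPM in wild-type libraries, and the red Fgf4 and Fgf5 blocks are taller in Stk40-/- libraries.

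Among the 12 other ligand genes 3 were tested, and 1 of them did not overlap between genotypes. Fgf18, of the Fgf8 subfamily, had 0.977 and 2.00 TPM in the Stk40-/- libraries and 0.752 and 1.52 TPM in the wild-type libraries. Fgf9, which signals in many mesenchymal tissues, reached 3.22 TPM in Stk40-/- library 2, against 0.0615 TPM in Stk40-/- library 1 and 0.130 and 0.775 TPM in the wild-type libraries. Fgf2, a ligand of the FGF1 subfamily, had 0.478 and 0.299 TPM in the Stk40-/- libraries and 0.530 and 5.90 TPM in the wild-type libraries, so that the genotypes did not overlap but wild-type library 2 stood alone. The same library held the most Col3a1, a fibroblast collagen gene, with 6.31 TPM against 1.35 TPM in wild-type library 1 and 0.113 and 0.609 TPM in the Stk40-/- libraries. Over 12 feeder fibroblast markers the summed level was 34.3 and 27.6 TPM in Stk40-/- libraries and 39.1 and 47.0 TPM in wild-type libraries, with 5 of 7 tested markers lower (Col1a1, Col1a2, Col3a1, Pdgfrb and Twist1) and 0 higher in both Stk40-/- libraries, and Fap, a fibroblast protease gene, was listed at 0 in both Stk40-/- libraries. The library with the highest value differed between these markers. Col1a2 was also highest in wild-type library 2, at 6.87 TPM. Pdgfrb and Col5a1 were highest in wild-type library 1, at 2.74 and 8.71 TPM, and Thy1 in Stk40-/- library 1, at 13.1 TPM. The part of remaining feeder cells in the Fgf2 value was not tested.

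Fgfbp1 (ENSMUSG00000048373.8; chromosome 5, 43978858 to 43981779, minus strand) showed the largest fold change of the 8 tested members. It had 92.9 and 80.4 TPM in the Stk40-/- libraries and 32.5 and 25.5 TPM in the wild-type libraries. The gap between the genotypes was far wider than the spread within either. The log2 fold change was 1.55 (SE 0.16, 95% interval 1.11 to 1.99, limma adjusted p = 0.196), ranked 37 of 15739 by unadjusted p, and 3.31% of tested genes had a fold change at least as large in size. It ranged from 1.38 to 1.72 without any 1 library. The related carrier gene Fgfbp3 had 12.1 and 7.01 TPM in the Stk40-/- libraries and 5.75 and 9.34 TPM in the wild-type libraries, with overlapping groups.

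The order of levels among the members differed by genotype just below the top. In Stk40-/- cells Fgfr1 stood above Fgfbp1, which stood above Fgf8, and in wild-type cells Fgfr1 stood above Fgf8, which stood above Fgfbp1, in both cases without overlap of the libraries of a genotype. Below them, Fgf4, Fgfr2 and Fgf5 were not separated beyond their spread in Stk40-/- cells (means from 8.65 to 11.6 TPM). Fgf17 came next and was separate from Fgf5 by a narrow margin only. It had 6.92 TPM in Stk40-/- library 1, against 7.01 TPM for Fgf5 in Stk40-/- library 2. In wild-type cells Fgfr2, Fgf17, Fgf5 and Fgf4 were not separated from their neighbours in the order (means from 4.52 to 7.63 TPM). Fgfr3, Fgf15 and Fgf3 came last in both, overlapping in Stk40-/- cells and separate in wild-type cells.

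Fgfr1 (ENSMUSG00000031565.18; chromosome 8, 25513654 to 25575718, plus strand) had 104 and 104 TPM in the Stk40-/- libraries and 119 and 105 TPM in the wild-type libraries. The groups were separate by a narrow margin, wild-type library 2 lying just above both Stk40-/- libraries. The log2 fold change was -0.11 (SE 0.10, 95% interval -0.37 to 0.15, limma adjusted p = 0.665), and 72.6% of tested genes had one at least as large in size. Leaving out a wild-type library gave -0.02 (library 1) or -0.20 (library 2). Fgfr1 stood above 90.6% of tested genes in Stk40-/- cells and above 91.7% in wild-type cells.

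Fgfr2 (ENSMUSG00000030849.18; chromosome 7, 130162451 to 133123350, minus strand), known from epithelia and trophoblast, had 7.89 and 12.6 TPM in the Stk40-/- libraries and 6.72 and 8.53 TPM in the wild-type libraries, with overlap. Its log2 fold change was 0.36 (SE 0.28, 95% interval -0.40 to 1.12, limma adjusted p = 0.640), and it ranged from 0.05 (Stk40-/- library 2 left out) to 0.66 (Stk40-/- library 1 left out). Fgfr3 (ENSMUSG00000054252.17; chromosome 5, 33721674 to 33737068, plus strand), known for restraining bone growth, had 1.28 and 1.85 TPM in the Stk40-/- libraries and 1.08 and 1.53 TPM in the wild-type libraries. Its groups overlapped too, with a log2 fold change of 0.15 (SE 0.39, 95% interval -0.90 to 1.21, limma adjusted p = 0.903) that ranged from -0.01 (Stk40-/- library 2 left out) to 0.32 (Stk40-/- library 1 left out). These intervals are wide enough to hold a change of 1 on the log2 scale in both genes.

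Over Fgfr1 to Fgfr4 the summed level was 113 and 118 TPM in the Stk40-/- libraries and 128 and 116 TPM in wild-type libraries, and the groups overlapped. Fgfr1 made up 91.7% and 87.7% of it in Stk40-/- libraries and 93.7% and 91.0% in wild-type libraries. Fgfr4 was at 0.242 and 0.0912 TPM in Stk40-/- libraries and at 0.251 and 0.355 TPM in wild-type libraries. Receptor RNA exceeded ligand RNA in every library, with ratios of 1.31 and 1.71 in Stk40-/- libraries and 1.11 and 1.07 in wild-type libraries. Receptor isoforms, which set the ligands a receptor can bind, were not analysed here.

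**Figure D3:**
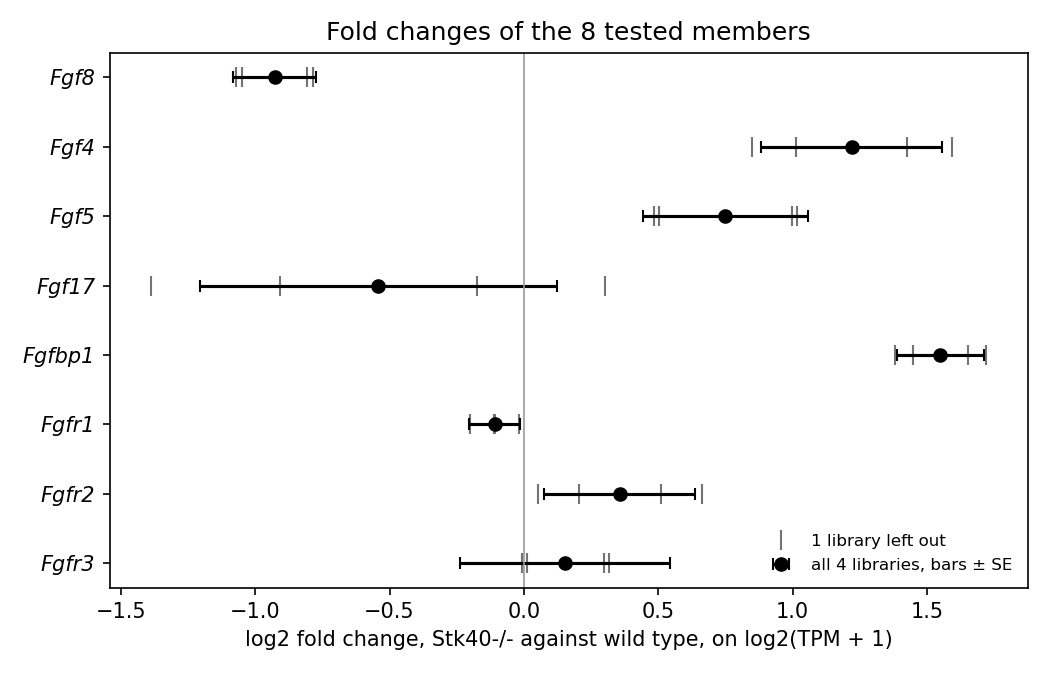
Log2 fold change of Stk40-/- over wild type on the log2(TPM + 1) scale for the 8 tested members, as points with bars of ± SE from limma (2 libraries per genotype), and grey ticks for the values with 1 library left out. The ticks of Fgf8, Fgf4, Fgf5, Fgfbp1 and Fgfr1 stay on their side of 0, as they must where the genotypes do not overlap. Those of Fgfr2 also stay on their side, and those of Fgf17 and Fgfr3 lie on both sides.

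The rest of the pathway was described from lists of genes that are not among the 10, and limma called 0 genes in each. Heparan sulfate genes, whose products make or carry the sugar chains that FGFs need to bind their receptors, had 24 of 25 genes tested, 9 higher and 3 lower in both Stk40-/- libraries, and a median log2 fold change of 0.15 beside 0.07 for all tested genes. Hspg2, which encodes the matrix proteoglycan perlecan, had 85.1 and 72.2 TPM in the Stk40-/- libraries and 48.97 and 48.9 TPM in the wild-type libraries. The chain-building enzyme gene Ext1 had 47.8 and 43.8 TPM in the Stk40-/- libraries and 30.2 and 35.5 TPM in wild-type libraries, and Glce, the epimerase gene of the same chains, 21.3 and 18.7 TPM in Stk40-/- libraries and 14.1 and 12.6 TPM in wild-type libraries. The syndecan gene Sdc1 had 29.5 and 31.4 TPM in the Stk40-/- libraries and 22.9 and 22.8 TPM in the wild-type libraries. The 3 that lay lower were the sulfotransferase genes Ndst1 and Hs3st1 and the glypican gene Gpc3, the last with 39.2 and 30.8 TPM in Stk40-/- libraries and 58.8 and 39.4 TPM in wild-type libraries.

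The list of co-receptor and binding genes had, without Fgfbp1, 9 of 13 tested, 2 higher (Fgfr1op and Fgfr1op2) and 2 lower (Cdh2 and Fibp), with a median of -0.03. Fgfr1op, Fgfr1op2 and Fgd1 stood in this list although their products are not known as FGF co-receptors or FGF-binding proteins. Its counts and median therefore do not describe co-receptors alone. Fgfr1op2 had 63.2 and 62.2 TPM in Stk40-/- libraries and 57.0 and 55.2 TPM in wild-type libraries, and Fgfr1op 63.1 and 54.4 TPM in Stk40-/- libraries and 53.9 and 44.7 TPM in wild-type libraries. Fibp had 24.7 and 23.2 TPM in Stk40-/- libraries and 26.1 and 26.1 TPM in wild-type libraries. Cdh2, the N-cadherin gene, whose product can bind Fgfr1, had 13.5 and 13.4 TPM in the Stk40-/- libraries and 36.3 and 17.6 TPM in the wild-type libraries. Adaptor genes next to the receptor had 12 of 12 tested, 2 higher (Frs2 and Sos1) and 2 lower (Crk and Crkl), with a median of 0.06. Crkl, an adaptor, was at 35.6 and 31.7 TPM in Stk40-/- libraries and at 44.3 and 43.2 TPM in wild-type libraries. Sos1, which activates RAS, had 11.8 and 9.64 TPM in Stk40-/- libraries and 8.36 and 8.39 TPM in wild-type libraries, and the phosphatase gene Ptpn11 had 51.1 and 56.7 TPM in Stk40-/- libraries and 65.6 and 56.2 TPM in wild-type libraries, with overlap. Frs2, the docking protein gene through which most FGF receptor signal passes, had 18.9 and 17.8 TPM in Stk40-/- libraries and 16.4 and 17.2 TPM in wild-type libraries. All 5 genes of splicing factors linked to receptor isoforms were tested, and 4 lay higher (Esrp1, Ptbp1, Ptbp2 and Rbfox2) and 0 lower, with a median of 0.15 beside 0.07 for all tested genes. Over all tested genes 27.5% lay higher. Ptbp2 had 94.3 and 83.6 TPM in Stk40-/- libraries and 74.2 and 62.1 TPM in wild-type libraries. Esrp1, which favours the epithelial form of Fgfr2, had 47.3 and 60.4 TPM in the Stk40-/- libraries and 37.6 and 42.6 TPM in the wild-type libraries.

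Targets and feedback genes of FGF and ERK signalling went both ways, more of them lower, and 22 of 23 were tested. In both Stk40-/- libraries 4 lay higher (Ccnd1, Etv5, Spred1 and Spsb1) and 9 lower. The 9 were Spry2, Spry4, Spred2, Spred3, Dusp4, Dusp6, Etv1, Ier2 and Lrig1. Over all tested genes 27.5% lay higher and 16.6% lower. Of the 22 fold changes 15 were negative, with a median of -0.11. Without wild-type library 1 the median was 0.10 and 54.5% were positive. Spsb1, which acts in protein turnover, had 6.55 and 5.89 TPM in Stk40-/- libraries and 2.91 and 3.37 TPM in wild-type libraries. The ETS factor gene Etv5 had 75.8 and 71.99 TPM in Stk40-/- libraries and 62.3 and 64.1 TPM in wild-type libraries, while Lrig1, an inhibitor of receptor kinases, had 10.1 and 10.8 TPM in Stk40-/- libraries and 15.8 and 13.3 TPM in wild-type libraries. Dusp6, the ERK phosphatase gene, named here after its values were seen, had 64.3 and 41.1 TPM in the Stk40-/- libraries and 165 and 68.8 TPM in the wild-type libraries, so that wild-type library 1 stood far above the other 3.

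**Figure D4:**
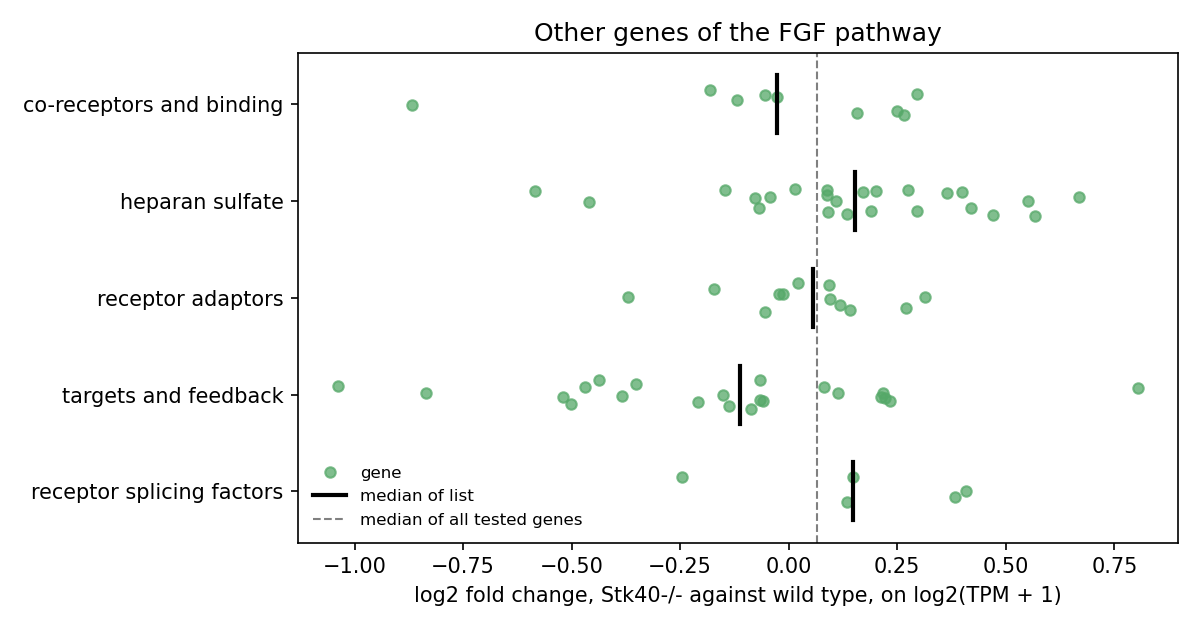
Log2 fold change of Stk40-/- over wild type on the log2(TPM + 1) scale for each tested gene of 5 pathway lists, with the 10 members left out, a black bar at the median of each list and a dashed line at the median of all tested genes, 0.07. Genes of every list lie on both sides of 0, and the medians run from -0.11 for targets and feedback genes to 0.15 for heparan sulfate genes.

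The genes whose pattern was most like that of a member were sought among 10086 protein-coding genes averaging 5 TPM or more, by the Euclidean distance between log2(TPM + 1) deviations from the gene's own mean over 4 libraries. With only 4 libraries many genes lie close together, and the distances are a description. Nearest to Fgf8 were Rhox5 (distance 0.135), Cyba (0.140) and Sema3f (0.153). Rhox5 had 160 and 143 TPM in the Stk40-/- libraries and 288 and 263 TPM in the wild-type libraries. Nearest to Fgf5 were Evc (0.0704), Hist1h3c (0.0981) and D830030K20Rik (0.126), and nearest to Fgfr1 were Etfrf1 (0.0104), Mterf4 (0.0163) and Akirin2 (0.0233).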

How the data were processed

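RNA was measured in 4 libraries, grouped by the sample titles as 2 Stk40-/- and 2 wild type. Poly(A) RNA was read in pairs of 100 or 150 bases on different instruments, per the labels, and the labels do not tie libraries to instruments, so a batch of this kind cannot be told apart from genotype. Per the file headers, each gene has a deposited TPM value for each library. The submitters' processing notes name CASAVA 1.7, Salmon 0.8.2 and the human build hg38, although the gene IDs are those of mouse. The annotation is not given in the sources. Salmon divides reads among similar transcripts, and TPM keeps no depth. There were 0 per-sample columns left unused.

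The 15739 genes averaging 1 TPM or more entered limma 3.58.1 (R 4.3.3) as log2(TPM + 1), with an intensity trend, no replicate block and Benjamini-Hochberg adjustment. The script was tested on simulated data. The smallest p of an exact permutation test of 2 against 2 libraries is 0.333, so single values such as sums and shares carry no test. Positions came from GENCODE vM21 on GRCm38, matched for all 10 members by Ensembl ID without its version, and promoters from RefSeq (GRCm38.p6), which held 6 of the 10.

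The members and gene lists were chosen with earlier results of these data known. The genes named were the 10 members, up to 4 per pathway list by the smallest unadjusted p, and the 3 nearest in pattern to Fgf8, Fgf5 and Fgfr1. Members of counts of 5 or fewer were named too. Fgfbp3, Fgfr4, Gpc3, Dusp6, Eomes, the streak and mesoderm markers under 1 TPM, Fap, Tpbpa, Ttr, Fgf10 and Fgf22 were added after their values were seen. So were Fgd1, Spry2, Spry4, Spred2, Spred3, Dusp4, Etv1, Ier2, Elf5 and Gata3. Alternatives tried were a pseudocount of 0.1 or 0.01, an expression filter above 0 or at 5 TPM, the replicate block, each library left out, rescaling without mitochondrial and ribosomal protein genes, median-of-ratios size factors, and no trend.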

Additional observations from a re-analysis of the deposited data

How the results depend on the processing

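With 2 libraries per genotype and depth unknown, limma called 0 members, 0 other pathway genes and 0 of all tested genes, also under each of the 12 alternatives. With 1 library left out, the log2 fold change of Fgf17 ran from -1.39 to 0.30 and that of Fgfr3 from -0.0077 to 0.32, both changing sign without Stk40-/- library 2. No other tested member changed sign under any alternative. For Fgf4, Fgf5, Fgf8, Fgfbp1 and Fgfr1, whose genotypes did not overlap, leaving out 1 library could not change the sign. The count of members whose genotypes did not overlap, 6 with all libraries, ran from 7 to 9 with 1 library left out, where separation is easier. The difference in the receptor sum was -5.75 TPM and 0.221 TPM without wild-type library 1, so its direction rests on that library. The difference in the Fgf8 share ran from -24.8 to -16.2 percentage points and that in the ligand sum from -42.1 to -24.7 TPM. When every gene above 0 was tested, Fgf15 had a log2 fold change of 0.42 (limma adjusted p = 0.706) and Fgf3 of 0.30 (limma adjusted p = 0.704). Median-of-ratios scaling gave a median of all tested genes of 0.003, against 0.07 as deposited. Libraries of the same number shared little over all tested genes, with a correlation of their deviations of 0.0893. That value cannot tell whether they shared a culture or a batch. With the replicate block limma still called 0 members. In this balanced design the block cannot move a fold change, so only the SEs differed. They were 0.09 for Fgf8 and 0.36 for Fgf4, against 0.15 and 0.34 without the block.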

Other observations

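Genes of the intracellular fibroblast growth factor homologous factors, which act on sodium channels and are not secreted, were present beside the secreted ligands. Fgf13 had 10.6 and 12.5 TPM in the Stk40-/- libraries and 8.95 and 12.1 TPM in the wild-type libraries, with overlapping groups. Fgf14 had 2.14 and 2.63 TPM in the Stk40-/- libraries and 0.831 and 1.91 TPM in wild-type libraries, and Fgf11 had 3.61 and 3.43 TPM in the Stk40-/- libraries and 2.83 and 3.09 TPM in the wild-type libraries. Among ligands below the filter, Fgf22 was at 0.514 and 1.02 TPM in the Stk40-/- libraries and listed at 0 in both wild-type libraries, and Fgf10 was listed at 0 in both Stk40-/- libraries and at 0.191 and 0.175 TPM in wild-type libraries.

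Fgfr2 is known from trophoblast, and trophoblast markers were summed beside it. Of 8 such markers 5 were tested, 2 lay lower (Cdx2 and Ascl2) and 0 higher in both Stk40-/- libraries, and the sum was 36.5 and 28.2 TPM in Stk40-/- libraries and 41.6 and 43.8 TPM in wild-type libraries, with Tpbpa at 0 in every library. Tfap2c was the largest part of that sum in each library, with 21.8 and 21.1 TPM in Stk40-/- libraries and 13.5 and 21.3 TPM in wild-type libraries. Over the 4 libraries Elf5 averaged 0.08 TPM and Gata3 0.71 TPM, and Hand1 was also in the streak and mesoderm list. Cdx2 had 1.46 and 0.904 TPM in Stk40-/- libraries and 11.1 and 9.03 TPM in wild-type libraries. Its direction was that of the streak and mesoderm genes T, Mixl1 and Msgn1, and which cells its RNA came from was not tested. Whether trophoblast cells were present was not tested. Of 8 neural markers 4 were tested and 3 lay higher (Sox1, Tubb3 and Map2), with sums of 71.3 and 103 TPM in Stk40-/- libraries and 67.8 and 66.3 TPM in wild-type libraries. Of 9 endoderm markers 3 were tested and 1 lay lower (Hhex), with sums of 7.20 and 10.2 TPM in Stk40-/- libraries and 10.7 and 12.4 TPM in wild-type libraries, and Ttr was at 0 in every library. The part of such cells in the values of Fgfr2 and Fgf15 was not tested.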
